A study of Mus musculus with 12 samples.

Results

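Glycogen metabolism genes were followed in mouse bone marrow-derived mesenchymal stromal cells (MSCs) treated with A1. The set held 10 genes of the 55487 genes in the count table: the glycogen-targeting phosphatase subunits Ppp1r3c, Ppp1r3b and Ppp1r3d, the synthetic enzymes Ugp2, Gyg, Gys1 and Gbe1, and the phosphorylases Pygb, Pygl and Pygm. The set was drawn up because Ppp1r3c was among the largest falls with A1, so that its change is described here without a test, and the other 9 genes joined it for their function. Of the 10 genes, 9 passed the filter on low counts and entered a fit of 11314 protein-coding genes. Pygl did not.

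RNA was sequenced in 3 groups of 4 samples. All were wild-type primary MSCs from C57BL/6 mice, which the study's methods describe as adherent marrow cells from the femurs of female mice aged 6 to 8 weeks, expanded and stored at passage 9 or 10. Control MSCs (labelled Negative) were untreated, A1-treated MSCs received 50 μM A1 for 6 h, and A1 + OVA-treated MSCs received 50 μM A1 together with 1 mg/mL ovalbumin (OVA), a model antigen, for 6 h. A1 is a conjugate of a bile acid and a nuclear localization peptide that was selected for inducing cross-presentation of OVA by MSCs. All groups were grown in the same serum-containing medium, as far as the labels tell. The label text for the A1 + OVA medium ends in a fragment that names insulin without an amount, so that it cannot be told from the labels whether insulin was present in that group. The sample labels give no treatment time for control MSCs, so it is not known whether they had a matching change of medium. No group received OVA alone. The labels do not say whether the 4 samples of a group came from separate animals or cultures, and p-values therefore measure only the spread between these samples, which may be technical.

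Glycogen is built from UDP-glucose, which UDP-glucose pyrophosphorylase (Ugp2) makes from glucose 1-phosphate. Glycogenin (Gyg) primes the chain, glycogen synthase (Gys1 outside liver) extends it and the branching enzyme (Gbe1) branches it, while glycogen phosphorylase releases glucose 1-phosphate from it. Regulatory subunits of the Ppp1r3 family bring protein phosphatase 1 (PP1) to the glycogen particle, where dephosphorylation activates glycogen synthase and inactivates phosphorylase, and phosphorylase kinase acts in the opposite sense on phosphorylase.

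The promoters of Ppp1r3c, of Ugp2 and of Ppp1r3d are shown because the first pair belongs to genes whose RNA was lower in every treated sample and the last to a member of the Ppp1r3 family that did not differ detectably. Each is the 250 bases upstream of a RefSeq start on the GRCm38.p6 assembly, written 5′ to 3′ on the strand of the gene. They lie on the minus strand at chr19:36736605-36736854 (Ppp1r3c), chr11:21371268-21371517 (Ugp2, the more upstream of its RefSeq starts) and chr2:178414464-178414713 (Ppp1r3d). A stretch of bases after the start was found in an annotated transcript for Ppp1r3c and Ppp1r3d, but for neither Ugp2 start. The Ugp2 windows are thus less certain. Capitals mark ACGTG, the core letters of the hypoxia response element, on either strand, including where it overlaps itself in the E-box CACGTG.
Ppp1r3c: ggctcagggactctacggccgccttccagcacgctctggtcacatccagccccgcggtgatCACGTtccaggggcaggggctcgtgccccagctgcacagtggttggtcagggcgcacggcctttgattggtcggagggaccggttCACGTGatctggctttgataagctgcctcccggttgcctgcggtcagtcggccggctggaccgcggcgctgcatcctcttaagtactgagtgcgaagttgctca
Ugp2: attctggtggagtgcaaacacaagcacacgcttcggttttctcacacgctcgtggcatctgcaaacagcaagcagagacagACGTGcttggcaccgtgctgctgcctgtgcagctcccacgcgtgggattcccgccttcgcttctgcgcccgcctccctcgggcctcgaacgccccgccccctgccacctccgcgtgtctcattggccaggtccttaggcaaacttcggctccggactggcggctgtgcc
Ppp1r3d: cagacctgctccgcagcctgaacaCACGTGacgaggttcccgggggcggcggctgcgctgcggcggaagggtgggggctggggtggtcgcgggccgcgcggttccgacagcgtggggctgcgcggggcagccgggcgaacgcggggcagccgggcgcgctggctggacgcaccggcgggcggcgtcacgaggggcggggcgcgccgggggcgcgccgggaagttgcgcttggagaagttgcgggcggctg

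A promoter window was found for 9 of the 10 genes. ACGTG was present for 6 of these 9 genes, in 6 of their 10 windows, compared with 16.6% of all 32851 windows of the same length. The Ppp1r3c window held it at position -189 and within CACGTG at position -104, where position -1 is the base just before the start. The Ugp2 window shown held it at position -169, whereas the window of the other Ugp2 start (chr11:21370630-21370879) held 0. The Ppp1r3d window held it within CACGTG at position -226. CACGTG was found only for Ppp1r3c and Ppp1r3d, 2 of the 9, against 6.02% of all windows. The windows of Gys1, Gyg and Gbe1 held no ACGTG. The core of the cAMP response element, TGACG, was present for 3 of the 9 genes (17.8% of all windows) and overlapped the E-box of Ppp1r3d, while TGTTTAC, a forkhead motif, was present for 0 of the 9 (3.17% of all windows). Pygb and Pygm, like Ppp1r3d, held ACGTG and were not called in any comparison.

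The libraries held 13702348 to 16881995 counts. The A1 libraries were the shallowest, with totals from 13702348 to 14347870, compared with 15644991 to 16881995 in control and 14359973 to 16674294 in A1 + OVA, and levels are given as CPM (counts scaled to library size) after TMM scaling. At this depth the floor of 3 counts corresponds to 0.177 to 0.229 CPM. The MSC markers summed to 821 to 881 CPM in control, 986 to 1020 CPM in A1 and 895 to 910 CPM in A1 + OVA. With A1, Cd44 rose (log2 fold change 1.39), Pdgfra (-0.99) and Ly6a (-0.59) fell, and Pdgfrb, Eng and Nt5e were not called. Of the MSC surface markers, Thy1 (which encodes CD90) held at most 17 counts and Nt5e (CD73) at most 14 counts in any library, so that both were near the floor. Of 6 blood cell markers, Adgre1, Itgam and Tyrobp were at or under 3 counts in all libraries, Ptprc held at most 4, Csf1r at most 14 and Cd68 between 16 and 31 counts.

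Ppp1r3c, the subunit also known as PTG that brings PP1 to glycogen, was lower in all 8 treated samples than in all 4 control samples. Expression was 14.2, 12.7, 13.5 and 13.1 CPM in control MSCs. It was 1.59, 1.99, 1.60 and 1.60 CPM in A1-treated MSCs. It was 1.96, 1.96, 1.85 and 2.59 CPM in A1 + OVA-treated MSCs. These values rest on 209 to 230 counts per control library, 21 to 26 per A1 library and 27 to 42 per A1 + OVA library. The mean was thus 7.88-fold lower with A1 (log2 fold change -2.98 ± 0.12, SE) and 6.36-fold lower with A1 + OVA (-2.67 ± 0.11). Both comparisons share the same control samples. In 26.4% of all tested genes every A1 sample lay below every control sample, and in 24% every A1 + OVA sample did. From the lowest log2 fold change upwards, Ppp1r3c held rank 8 of the 11314 tested genes with A1 and rank 9 with A1 + OVA. The samples of both treated groups overlapped, and A1 + OVA against A1 gave a log2 fold change of 0.31 ± 0.18 (95% interval -0.05 to 0.67). The gene (ENSMUSG00000067279) lies at chr19:36731731-36736653 on the minus strand of GRCm38, and its exons overlap no other gene on that strand.

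**Figure D1:**
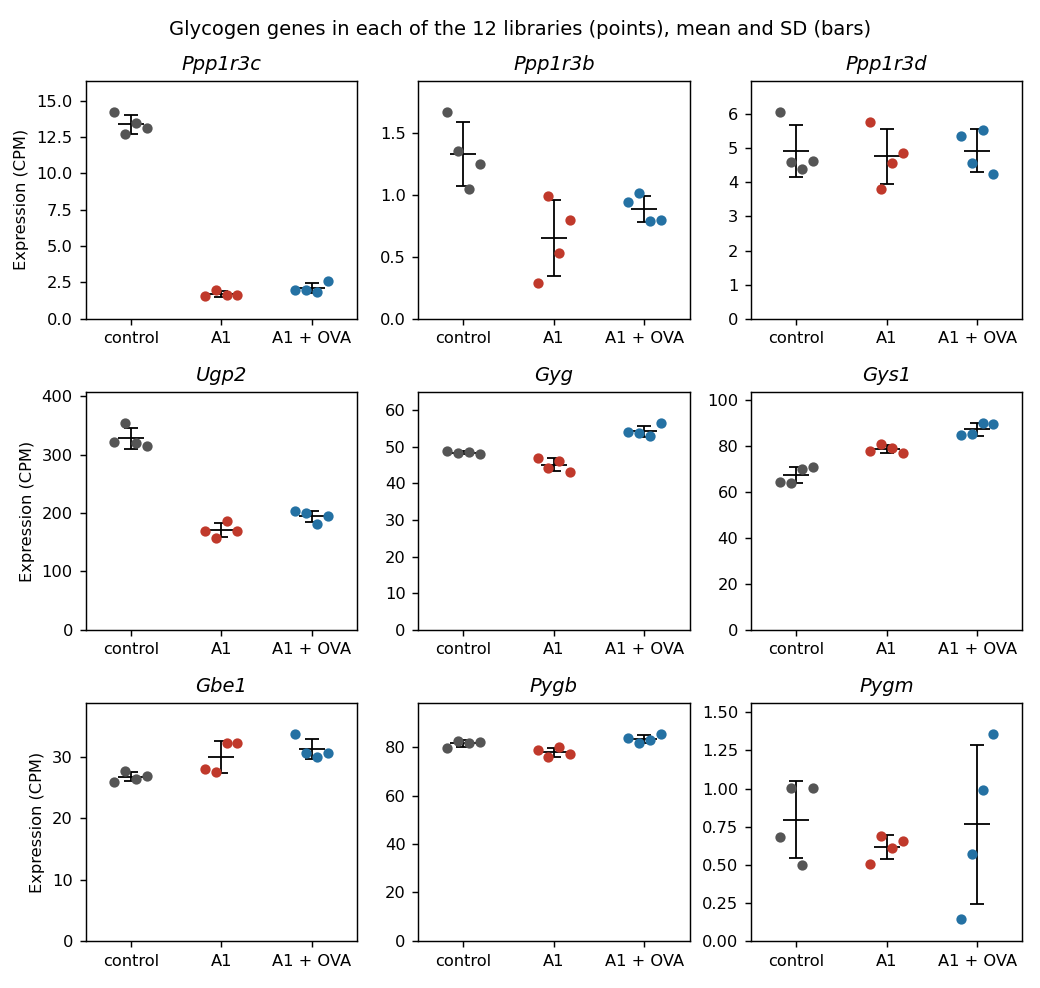
Expression in CPM (vertical axes, each starting at 0) of the 9 glycogen genes with counts above the filter in control, A1 and A1 + OVA samples; points are the 4 libraries of a group and bars the mean ± SD. Ppp1r3c fell from 12.7 to 14.2 CPM in control to 1.59 to 2.59 CPM in treated samples, Ugp2 sat lower in all treated samples, and Gys1 sat higher in all of them.

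The other targeting subunits did not move alike. Calls are read against the 62.7% of all tested genes that A1 changed at an adjusted p under 0.05, with 31.1% of all tested genes called lower, and the 57.6% that A1 + OVA changed. Ppp1r3b, the subunit best known from liver, was low throughout and fell with A1. Its expression was 1.67, 1.36, 1.05 and 1.25 CPM in control, 0.289, 0.993, 0.534 and 0.799 CPM in A1, and 0.942, 1.01, 0.792 and 0.801 CPM in A1 + OVA. All treated samples lay below all control samples, in counts of 4 to 16 against 17 to 27. The log2 fold change was -1.03 ± 0.28 with A1 (edgeR quasi-likelihood test, Benjamini-Hochberg adjusted p = 0.00352) and -0.59 ± 0.26 with A1 + OVA (adjusted p = 0.0547, not called). The latter was called in the fit without control replicate 3 (-0.68), without A1 replicate 1 (-0.60) or without A1 replicate 2 (-0.59), with upper-quartile scaling (adjusted p = 0.0462) and with only the groups compared in the fit (adjusted p = 0.0368). The gene (ENSMUSG00000046794) lies at chr8:35375739-35388139.

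Ppp1r3d, which also targets PP1 to glycogen, was measured at 6.06, 4.61, 4.39 and 4.64 CPM in control, 5.79, 3.82, 4.58 and 4.87 CPM in A1, and 5.36, 4.56, 5.55 and 4.25 CPM in A1 + OVA. The 3 groups overlapped. The log2 fold change was -0.05 ± 0.14 with A1 (95% interval -0.34 to 0.25, adjusted p = 0.801) and -0.00 ± 0.14 with A1 + OVA (-0.29 to 0.28, adjusted p = 0.981), and its sign changed when single libraries were left out. A difference of the size seen for Ppp1r3c lies outside these intervals. The gene (ENSMUSG00000049999) lies at chr2:178411206-178414472 on the minus strand.

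The make-up of the targeting subunits differed as well. Per exon length, in TPM (counts per exon length, scaled to the library), Ppp1r3c made up 74.1% ± 2.29 (SD, n = 4) of the summed level of Ppp1r3b, Ppp1r3c and Ppp1r3d in control MSCs. Its share was 28.7% ± 4.79 in A1 and 31.8% ± 5.72 in A1 + OVA. The summed level went from 26.3 TPM in control to 8.05 TPM with A1 and 9.09 TPM with A1 + OVA, and Ppp1r3d then held 66.4% and 62.3% of it, compared with 22.6% in control. These shares rest on the change of Ppp1r3c and are no separate result. A further family member outside the set, Ppp1r3e, rose from 5.26 CPM in control to 8.29 CPM with A1 (log2 fold change 0.66, adjusted p = 4.09e-05) and 8.65 CPM with A1 + OVA (0.72, adjusted p = 9.78e-06), with no overlap with control. When it is counted in, an alternative chosen after seeing the data, Ppp1r3c made up 56.3% of the family in control, 11.4% in A1 and 13.2% in A1 + OVA, and Ppp1r3e 24.1%, 60.2% and 58.5%.

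**Figure D2:**
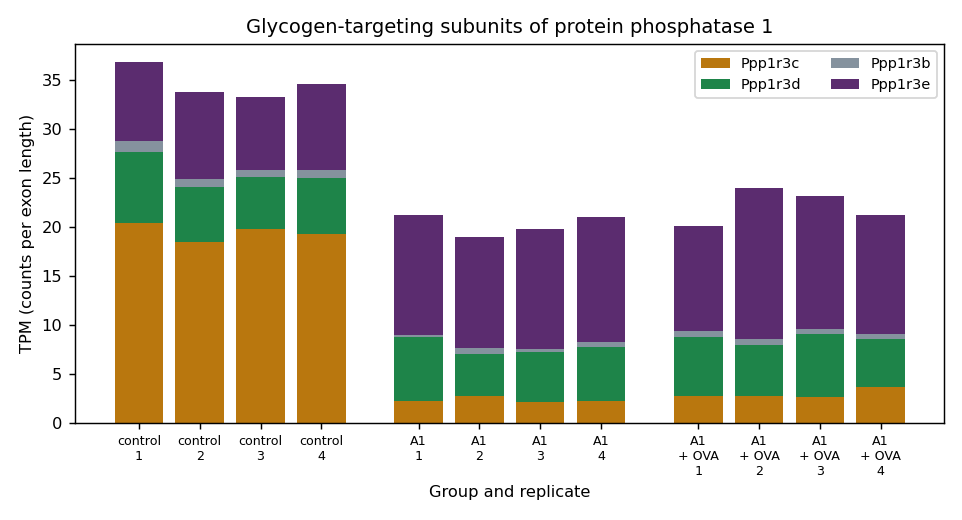
Stacked level per exon length (vertical axis, TPM, starting at 0) of 4 glycogen-targeting subunits of PP1 in each of the 12 libraries, with Ppp1r3e added after its values were seen. The Ppp1r3c segment is the largest in all control libraries (54.7% to 59.4% of the bar) and makes up 10.2% to 17.0% in treated ones, while the whole bar goes from a mean of 34.6 TPM in control to 20.2 TPM with A1 and 22.1 TPM with A1 + OVA.

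Among the synthetic enzymes, Ugp2 fell with both treatments and Gys1 rose with both. Ugp2 was the most abundant gene of the set and its expression was 322, 354, 320 and 315 CPM in control, 170, 158, 187 and 169 CPM in A1, and 203, 200, 182 and 195 CPM in A1 + OVA. Every treated sample lay below every control sample. The log2 fold change was -0.94 ± 0.05 with A1 (1.92-fold lower, edgeR adjusted p = 4.88e-13) and -0.75 ± 0.05 with A1 + OVA (1.68-fold lower, adjusted p = 1.95e-11). It fell in every alternative run, with values from -0.99 to -0.90 with A1 and from -0.77 to -0.71 with A1 + OVA. Ugp2 (ENSMUSG00000001891) lies at chr11:21321138-21371201 on the minus strand.

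Gys1, the glycogen synthase of muscle and most tissues other than liver, was measured at 64.6, 64.1, 70.2 and 70.9 CPM in control, 78.0, 81.2, 79.4 and 77.2 CPM in A1, and 84.7, 85.5, 90.1 and 89.7 CPM in A1 + OVA. The 3 groups did not overlap and stood in the order control, A1, A1 + OVA. In 28% of all tested genes every A1 sample lay above every control sample, and in 25.4% every A1 + OVA sample did. The rise was small, with a log2 fold change of 0.23 ± 0.04 with A1 (edgeR adjusted p = 0.000139) and 0.38 ± 0.04 with A1 + OVA (adjusted p = 1.84e-07). Gys2, the liver isoform, had at most 1 count in any library, and Pgm5, of the phosphoglucomutase family, at most 2. Gys1 (ENSMUSG00000003865) lies at chr7:45434844-45456619.

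Gyg, which primes new glycogen, rose with A1 + OVA and not with A1 alone. Its expression was 48.8, 48.4, 48.5 and 48.1 CPM in control, 46.9, 44.3, 46.2 and 43.0 CPM in A1, and 54.0, 53.6, 53.0 and 56.5 CPM in A1 + OVA. The samples of A1 lay below and those of A1 + OVA above all control samples. With A1 + OVA the log2 fold change was 0.16 ± 0.04 (edgeR adjusted p = 0.00291). With A1 it was -0.10 ± 0.05 and missed the threshold (adjusted p = 0.053), and it was called without A1 replicate 1 (-0.13), without A1 replicate 3 (-0.12), with upper-quartile scaling (adjusted p = 0.0165), with at least 10 counts in every sample (adjusted p = 0.0423) and in a fit of all genes of the table (adjusted p = 0.0377). Gyg (ENSMUSG00000019528) lies at chr3:20122084-20155317 on the minus strand.

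Gbe1, the branching enzyme, was measured at 25.99, 27.78, 26.48 and 26.96 CPM in control, 27.99, 27.56, 32.29 and 32.24 CPM in A1, and 33.7, 30.71, 30.04 and 30.57 CPM in A1 + OVA. A1 replicates 1 and 2 lay close to the highest control sample and A1 replicates 3 and 4 well above it. The log2 fold change was 0.22 ± 0.06 with A1 + OVA (edgeR adjusted p = 0.0046), where no sample overlapped control. With A1 it was 0.16 ± 0.06 (adjusted p = 0.0299), and this call was lost with upper-quartile scaling (adjusted p = 0.0693), in DESeq2 (adjusted p = 0.0504) and without control replicate 1 (0.15), control replicate 3 (0.16), A1 replicate 3 (0.12) or A1 replicate 4 (0.12). Gbe1 (ENSMUSG00000022707) lies at chr16:70313949-70569716.

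Of the phosphorylases, which release glucose 1-phosphate from glycogen, only the brain form Pygb was expressed at an appreciable level. It was measured at 79.5, 82.7, 81.9 and 82.1 CPM in control, 78.7, 75.7, 79.9 and 77.0 CPM in A1, and 83.6, 81.8, 82.8 and 85.3 CPM in A1 + OVA. The differences were small and were not called, with a log2 fold change of -0.07 ± 0.04 with A1 (95% interval -0.15 to 0.01, edgeR adjusted p = 0.126) and 0.03 ± 0.04 with A1 + OVA (-0.05 to 0.11, adjusted p = 0.48). With upper-quartile scaling, Pygb was called lower with A1 (log2 fold change -0.10). Pygb lies at chr2:150786735-150831758.

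The muscle form Pygm was near the limit of detection, with 8 to 17 counts per control library, 7 to 9 per A1 library and 2 to 22 per A1 + OVA library. Its groups overlapped, and the log2 fold change was -0.37 ± 0.41 with A1 (95% interval -1.23 to 0.48, edgeR adjusted p = 0.442) and -0.02 ± 0.38 with A1 + OVA (adjusted p = 0.966). A difference in Pygm was not detectable at this depth. The liver form Pygl had 0 counts in all 12 libraries, which allows a level of up to 0.177 to 0.229 CPM per library, for counting error only. Per exon length, Pygb made up 98.6% of the summed phosphorylase level in control, 98.8% in A1 and 98.7% in A1 + OVA. Pygm lies at chr19:6384399-6398459 and Pygl at chr12:70190811-70231488 on the minus strand.

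Of the 9 genes chosen by function, 8 were tested, and with A1 2 rose (Gys1 and Gbe1), 2 fell (Ppp1r3b and Ugp2) and 4 were not called. A1 changed 62.7% of all 11314 tested genes at this threshold, 31.7% upwards and 31.1% downwards, so that 4 of 8 is no more than the background. With A1 + OVA 3 rose (Gys1, Gyg and Gbe1), 1 fell (Ugp2) and 4 were not called, beside 57.6% of all tested genes, 29.7% upwards and 27.9% downwards. The median log2 fold change of the 8 genes was -0.09 with A1 and 0.01 with A1 + OVA, beside a median of 0.00 over all tested genes in both. When a change of 0.5 or more on the log2 scale was also required, 2 of the 8 remained with A1 (Ppp1r3b and Ugp2, beside 21% of all genes) and 1 with A1 + OVA (Ugp2, beside 17.7%).

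**Figure D3:**
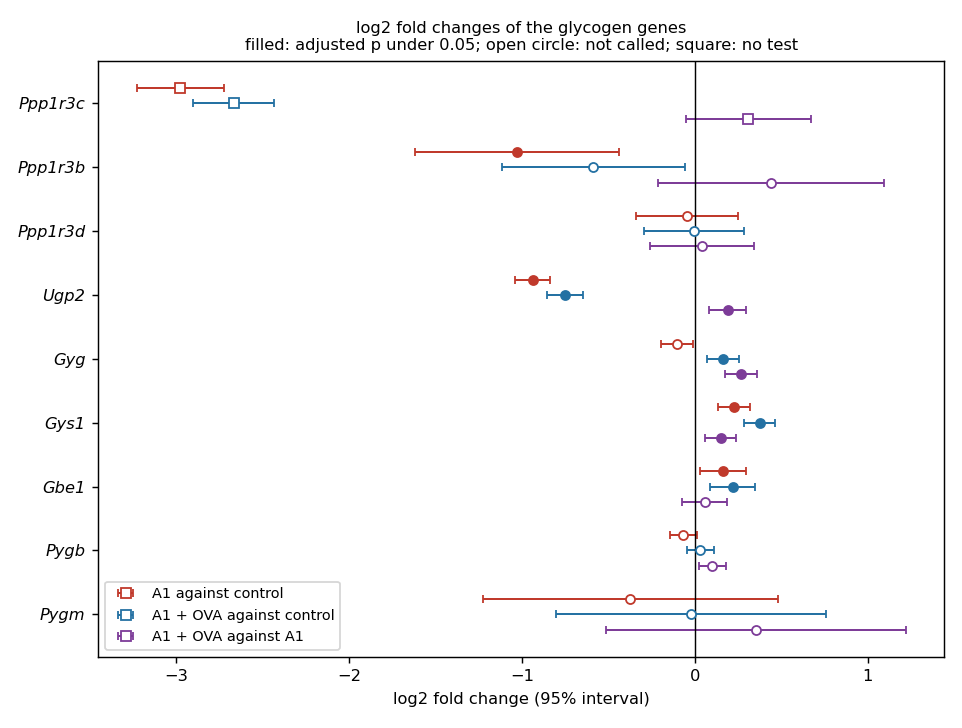
Log2 fold change (horizontal axis) of each tested glycogen gene for A1 against control, A1 + OVA against control and A1 + OVA against A1, with 95% intervals; filled circles have an adjusted p under 0.05, open circles do not, and squares mark Ppp1r3c, which has no test. Ppp1r3c lies at -2.98 and -2.67 against control, Ugp2 at -0.94 and -0.75, and the other synthetic enzymes and Pygb lie within 0.38 of no change.

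A1 + OVA was next compared with A1, which differ by the OVA that was added and possibly by the medium noted above. Of the 8 genes chosen by function, 3 were higher with A1 + OVA (Gyg, Gys1 and Ugp2) and 0 were lower, beside 12.9% of all tested genes called, 6.05% upwards and 6.81% downwards. The 5 others were not called, and the median log2 fold change of the 8 was 0.17, beside 0.01 over all genes. Of these 3, Gyg gave the largest value, with a log2 fold change of 0.27 ± 0.05 (edgeR adjusted p = 0.000486) and all 4 A1 + OVA samples above all A1 samples. Samples were apart in this way for 8.56% of all tested genes, and for 9.58% in the opposite direction. Gys1 gave 0.15 ± 0.04 (adjusted p = 0.0276) without overlap, and its call was lost without A1 replicate 1 (0.14), 3 (0.15) or 4 (0.14) or A1 + OVA replicate 3 (0.14) or 4 (0.14). Ugp2 gave 0.19 ± 0.05 (adjusted p = 0.0159) although A1 + OVA replicate 3, at 182 CPM, lay below A1 replicate 3, at 187 CPM, and its call was lost without A1 replicate 2 (0.15). Gbe1 gave 0.06 ± 0.06 (95% interval -0.07 to 0.19, adjusted p = 0.601), Pygb 0.10 ± 0.04 (adjusted p = 0.0897), Ppp1r3b 0.44 ± 0.32 (-0.21 to 1.095, adjusted p = 0.39), Ppp1r3d 0.04 ± 0.15 (adjusted p = 0.89) and Pygm 0.35 ± 0.42 (adjusted p = 0.625). When a change of 0.5 or more on the log2 scale was also required, 0 of the 8 remained, beside 1.2% of all tested genes.

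Because the labels name insulin for the A1 + OVA medium, genes that respond to insulin are given beside this comparison. Of 7 such genes, 5 were tested and 1 was higher with A1 + OVA than with A1, beside 6.05% of all tested genes. It was Irs2, an insulin receptor substrate, with a log2 fold change of 0.17 (edgeR adjusted p = 0.0479). That value is close to the threshold, and no alternative run is given for Irs2. Insr, Irs1, Srebf1 and Foxo1 were not called, and Pck1 and Igfbp1 had 0 counts. Against control, Irs1 (86.3 to 43.5 CPM) and Foxo1 (89.0 to 63.6 CPM) fell with A1, and Irs2 (16.3 to 24.6 CPM) and Srebf1 (28.8 to 32.6 CPM) rose. The part of insulin in the differences between both treatments was not tested.

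The wider pathway was read from 39 other genes of glycogen handling, of which 28 were tested. With A1 7 rose, 7 fell and 14 were not called, the median being -0.00 on the log2 scale, and with A1 + OVA 6 rose and 7 fell, with a median of -0.01. These 14 and 13 of 28 genes stand beside 62.7% and 57.6% of all tested genes. Between A1 + OVA and A1, 5 were higher (Gaa, Stbd1, Prkag2, Slc2a1 and Hk2) and 2 lower (Ppp1cc and Prkab1), and this count of 7 was 4 without A1 + OVA replicate 4. Of all tested genes, 6.05% were called higher and 6.81% lower in that comparison. Of the genes called, 5, 5 and 0 differed by 0.5 or more on the log2 scale in the 3 comparisons, in the order given. These counts out of 28 stand beside 21%, 17.7% and 1.2% of all tested genes.

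Phosphorylase kinase, which activates phosphorylase, fell in most of its subunits. The regulatory subunit Phka2 went from 88.2, 88.0, 91.8 and 89.4 CPM in control to 38.6, 42.4, 37.6 and 43.1 CPM with A1 and 42.8, 39.1, 47.3 and 48.2 CPM with A1 + OVA. Its log2 fold change was -1.14 ± 0.06 with A1 (edgeR adjusted p = 3.18e-13) and -1.01 ± 0.06 with A1 + OVA (adjusted p = 1.95e-12). Phkb fell from a mean of 69.3 CPM to 46.0 and 50.4 CPM (log2 fold changes -0.59 and -0.46), and Phka1 from 53.0 CPM to 39.0 and 38.6 CPM (-0.44 and -0.46), all without overlap with control. The catalytic subunit Phkg2 was not called, at 10.9 CPM in control, 10.4 CPM with A1 (adjusted p = 0.594) and 11.5 CPM with A1 + OVA (adjusted p = 0.493). The other catalytic subunit, Phkg1, had at most 7 counts and was not tested. Of 4 subunits tested, 3 thus fell with A1, beside 31.1% of all tested genes, and 3 with A1 + OVA, beside 27.9%, against the same control samples. Between the treatments 0 were called, although Phka2 was called higher with A1 + OVA in the fit without A1 + OVA replicate 2 (log2 fold change 0.19).

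Around the phosphatase, the catalytic subunit Ppp1cb fell with A1 (log2 fold change -0.38, edgeR adjusted p = 1.66e-07) and with A1 + OVA (-0.29, adjusted p = 9.13e-06). Ppp1ca rose with A1 (0.13, adjusted p = 0.015), a call lost with upper-quartile scaling (0.10) and without control replicate 2 (0.10), control replicate 3 (0.11) or A1 replicate 1 (0.11), and Ppp1cc was lower with A1 + OVA than with A1 (-0.15, adjusted p = 0.0453), a call lost in DESeq2 (-0.16), with upper-quartile scaling (-0.15) and without control replicate 3 or 4, A1 replicate 1, 2 or 3, or A1 + OVA replicate 2, 3 or 4, with values from -0.17 to -0.13. The targeting subunits Ppp1r3a and Ppp1r3g had at most 1 count, and Ppp1r3f at most 6. Of the kinases that phosphorylate glycogen synthase, Gsk3b fell with both treatments (-0.24 with A1, adjusted p = 6.13e-05; -0.32 with A1 + OVA, adjusted p = 1.54e-06), while Gsk3a was not called. Of the AMP-activated kinase subunits, Prkag2 fell with both (-0.40 and -0.25), Prkab1 rose with A1 (0.25, adjusted p = 0.000143), Prkag1 fell with A1 + OVA (-0.15, adjusted p = 0.00655), and the catalytic subunits Prkaa1 and Prkaa2 were not called. With A1, Prkag1 missed the threshold (-0.09, adjusted p = 0.0776) and was called with upper-quartile scaling (-0.12) and without A1 replicate 3 (-0.12), and the treatments were not called different (-0.06, adjusted p = 0.443). Between the treatments Prkab1 was lower with A1 + OVA (-0.19, adjusted p = 0.0146), except without A1 + OVA replicate 4 (-0.17), and Prkag2 was higher (0.15, adjusted p = 0.0315), except in DESeq2 (0.15) and without A1 replicate 1, 3 or 4 or A1 + OVA replicate 1, 2 or 4 (0.13 to 0.16).

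Of the genes that bring glucose into the pathway, Slc2a1 and Hk2 rose with both treatments. Pgm2, a phosphoglucomutase-family enzyme, rose from 60.5 CPM to 80.9 CPM with A1 and 80.0 CPM with A1 + OVA (log2 fold changes 0.42 and 0.40), while Pgm1 was not called at 91.0, 85.5 and 89.8 CPM. Slc2a1, the glucose transporter GLUT1, rose from 39.9 CPM in control to 93.2 CPM with A1 (log2 fold change 1.22, edgeR adjusted p = 2.81e-15) and 110 CPM with A1 + OVA (1.47, adjusted p = 1.2e-16). Hk2, a hexokinase, rose from 44.8 CPM to 82.0 CPM (0.87, adjusted p = 2.98e-09) and 103 CPM (1.21, adjusted p = 1.11e-11). Both were also higher with A1 + OVA than with A1 (0.24 and 0.33). Hk1 was called higher with A1 + OVA (0.10, adjusted p = 0.0382), and that call was lost in DESeq2 (0.10), with upper-quartile scaling (0.08), with no filter (0.10), with all genes of the table (0.09), with only the groups compared (0.10) and without control replicate 1 or 2, A1 replicate 1, 3 or 4, or A1 + OVA replicate 3 or 4 (0.07 to 0.11). Slc2a4, Hk3 and G6pc had at most 2 counts in any library, and Slc2a3 at most 8.

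Of 4 genes of lysosomal glycogen handling and of laforin and malin, 3 were tested. Between the treatments 2 were higher with A1 + OVA, beside 6.05% of all tested genes, and 0 were lower, beside 6.81%. Gaa, the lysosomal glucosidase, fell from 110 CPM to 90.5 CPM with A1 (log2 fold change -0.28, edgeR adjusted p = 5.16e-05) and stood at 111 CPM with A1 + OVA (adjusted p = 0.807), so that both treatments differed from each other (0.30, adjusted p = 0.000509). Stbd1, which tethers glycogen to membranes, rose from 22.1 CPM to 30.1 CPM with A1 (0.44, adjusted p = 5.45e-07) and 35.7 CPM with A1 + OVA (0.69, adjusted p = 3.58e-10), with the 3 groups fully apart. Epm2a, which encodes laforin, was not called, and Nhlrc1, which encodes malin, had at most 5 counts.

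**Figure D4:**
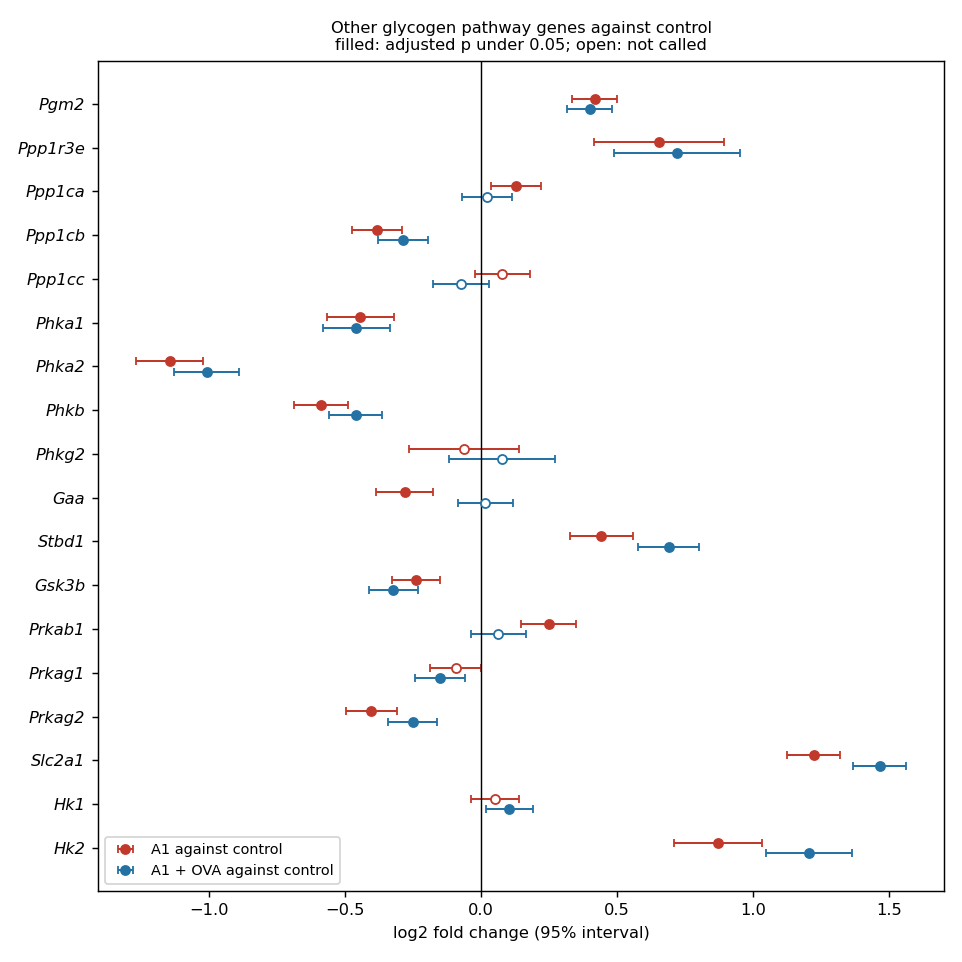
Log2 fold change against control (horizontal axis) with 95% intervals of the other glycogen pathway genes called in any of the 3 comparisons and of Phkg2, for A1 and A1 + OVA; filled circles have an adjusted p under 0.05. Slc2a1 (1.22 and 1.47) and Hk2 (0.87 and 1.21) lie farthest to the right and Phka2 (-1.14 and -1.01) farthest to the left.

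Per exon length, Ppp1r3c moved from place 6 in the order of levels in control to place 7 in both treated groups. Gys1 moved from place 4 to 3 and Pygb from 3 to 4. The move of Ppp1r3c follows from the fall for which it was chosen and is no separate result. In control MSCs the order was Ugp2 (423 TPM), Gyg (81.9), Pygb (67.2), Gys1 (55.8), Gbe1 (19.8), Ppp1r3c (19.5), Ppp1r3d (5.97), Pygm (0.981), Ppp1r3b (0.849) and Pygl (0). The samples of Gbe1 and Ppp1r3c overlapped, as did those of Pygm and Ppp1r3b, while all other neighbours were apart. In A1-treated MSCs Ppp1r3c, at 2.29 TPM, stood below Ppp1r3d, at 5.37 TPM, with no overlap of samples, and the same held with A1 + OVA (2.88 and 5.67 TPM). Gys1 and Pygb overlapped in both treated groups (60.7 and 59.6 TPM with A1, 68.7 and 65.1 TPM with A1 + OVA), whereas Pygb stood above Gys1 in every control sample.

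The genes whose log2 CPM followed that of Ppp1r3c most closely over the 12 samples were Glis3 (Pearson's r = 0.9955), Ankrd44 (0.9954), Ifngr1 (0.9949), Adamts1 (0.9943) and Cxcl12 (0.9943). All 5 were lower with both treatments, as for Cxcl12 from a mean of 3910 CPM to 1510 and 1690 CPM. With 3 groups, such a correlation mainly records the step between control and treated samples, which all points share. Among the glycogen genes, Phka2 followed Ppp1r3c at rank 52 of 11313 genes (r = 0.988) and Ugp2 at rank 284 (r = 0.970), while Gys1 (r = -0.832) and Pgm2 (r = -0.983) ran opposite to it.

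Other genes moved beside these. Of 10 target genes of the hypoxia response, 9 were tested. With A1 7 rose (Vegfa, Ldha, Pdk1, Egln3, Bnip3, Ankrd37 and P4ha1) and 0 fell, beside 31.7% of all tested genes called higher. The median with A1 was 0.60 on the log2 scale. With A1 + OVA 8 rose, beside 29.7% of all tested genes, with a median of 0.53. Between A1 + OVA and A1, Ndrg1 was higher (0.67), beside 6.05% of all tested genes, and Ldha, Bnip3 and P4ha1 were lower, beside 6.81%. Of the adipocyte markers, Adipoq fell from 2.20 CPM to 0.670 CPM with A1 and 0.689 CPM with A1 + OVA, and Cidec from 1.54 CPM to 0.893 and 1.05 CPM. Fabp4, the most abundant of them, stood at 63.2 CPM in control and 64.0 CPM with A1 (edgeR adjusted p = 0.8) and rose to 71.3 CPM with A1 + OVA (log2 fold change 0.17, adjusted p = 0.011), while the summed level of all 5 stayed between 62.7 and 78.9 CPM and Lep had 0 counts. Of the skeletal muscle markers, Acta1 rose from 1.13 CPM to 7.91 and 9.87 CPM. Des was not called against control, at 2.12 CPM in control, 2.18 CPM with A1 and 2.37 CPM with A1 + OVA. Ckm, Myog, Myod1 and Myh1 had 0 counts in all libraries. Macrophage markers summed to 1.68 to 2.77 CPM, endothelial markers to at most 0.534 CPM and hepatocyte markers to at most 0.382 CPM in any library. The part of the hypoxia targets and of the adipocyte markers in the changes of the glycogen genes was not tested. In bulk RNA, fewer cells that express a gene and less of its RNA per cell cannot be told apart.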

How the data were processed

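The authors aligned strand-specific paired-end reads of poly(A)-selected libraries to GRCm38 with STAR (version 2.7), summarized them per gene with featureCounts (version 2.0) and deposited raw counts without normalization. The depth was 13702348 to 16881995 counts per library, and every column of the table matched a sample title, which also gave the group. GENCODE M21, on the same assembly but older than the annotation used for counting, gave the symbols, biotypes, exon lengths and coordinates and covered 99.53% of the identifiers.

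From these counts, protein-coding genes were filtered with filterByExpr and scaled by TMM. A single quasi-likelihood fit of 12 samples in 3 groups was made in edgeR (version 4.0.16, under R 4.3.3). Benjamini-Hochberg adjustment ran over 11314 genes, and a gene was called at an adjusted p under 0.05. Groups were compared on CPM, and genes within a group per union exon length (TPM), a scale that also depends on the lengths of all other genes and can shift between groups otherwise than CPM. Log2 CPM used a prior count of 2. Alternatives were DESeq2 (version 1.42.0), upper-quartile scaling, other filters, only the groups compared, the replicate number as a block, and each library left out in turn. The test was also run on simulated counts, with the same spread for every gene and few changed genes. That setting is unlike these data, and no conclusion is drawn from it. The variance between any 2 replicates of a group was 2.18 to 9.00 times that of counting, so that no library was a copy of another.

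The members and the gene lists were chosen with earlier results of these data known. The text names all members, the listed pathway genes called in any comparison or at 3 counts or fewer, and the 5 genes most correlated with Ppp1r3c. A few listed genes are left out of the report and of its counts. Promoters are from RefSeq (GRCm38.p6), where motifs were searched on both strands. Intervals are 95%, and floors of 3 counts cover counting error only.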

Additional observations from a re-analysis of the deposited data

Results flagged for a closer look

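In 3 of 27 groups of 4 samples, formed by a glycogen gene and a treatment, a single library stood apart, its gap to the nearest of the others exceeding 0.829 of the range of the group. Chance alone marks about 1 in 20 such groups. For Ppp1r3c in A1, replicate 2 stood at 1.99 CPM, above the 1.59 to 1.60 CPM of the others. For Ppp1r3c in A1 + OVA, replicate 4 stood at 2.59 CPM, above 1.85 to 1.96 CPM. For Ppp1r3d in control, replicate 1 stood at 6.06 CPM, above 4.39 to 4.64 CPM. Both Ppp1r3c values remained under the lowest control sample, at 12.7 CPM. Without each library in turn the log2 fold change of Ppp1r3c ranged from -3.06 to -2.95 with A1 and from -2.79 to -2.61 with A1 + OVA.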

How the results depend on the processing

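Each result for the members and the called pathway genes was set against each alternative that could be fitted. With at least 10 counts in every sample, Ppp1r3b and Pygm were not in the fit, nor was Pygm for A1 against control and A1 + OVA against A1 with only the groups compared. In 1388 such pairs of a single gene the direction and the side of the threshold were kept. In 46 a call was lost, in 16 one was gained, and in 24 the sign of a difference that was not called changed. A summary value was counted as unchanged in 197 pairs, which allowed small moves. For shares, these were moves smaller than the SD of the group. Numbers of called genes were counted as unchanged although single calls were lost, as for Gbe1 with A1 without control replicate 1. These numbers moved by more when a change of 0.5 or more on the log2 scale was also required, since small changes are then left out. Members called then numbered 2, 1 and 0, and other pathway genes 5, 5 and 0. The order is A1 against control, A1 + OVA against control and A1 + OVA against A1. For A1 + OVA against A1, 4 to 8 other pathway genes were called when single libraries were left out. The shares moved without exon length, to 68.3% for Ppp1r3c in control and to 99.0% and 99.2% for Pygb in control and A1, and with Ppp1r3e counted in, to 56.3%, 11.4% and 13.2% for Ppp1r3c. With upper-quartile scaling, Ppp1ca (-0.001) and Gaa (-0.008) changed sign for A1 + OVA against control, values close to 0. Without single libraries, sign changes gave ranges for A1 against control of -0.16 to 0.07 (Ppp1r3d), for A1 + OVA against control of -0.067 to 0.111 (Ppp1r3d), -0.45 to 0.29 (Pygm), -0.010 to 0.072 (Ppp1ca) and -0.037 to 0.037 (Gaa), and for A1 + OVA against A1 of -0.05 to 0.15 (Ppp1r3d), -0.078 to 0.661 (Pygm), -0.034 to 0.137 (Ppp1r3e) and -0.077 to 0.025 (Phka1). The causes were not tested. For genes under about 20 counts, as Pygm and Ppp1r3b, depth limits what could be seen.

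The titles number the replicates 1 to 4 in each group. Deviations from the group means correlated by 0.02 on average in the 12 pairs with the same number (-0.13 to 0.16) and by -0.01 in the 36 others (-0.18 to 0.18). Samples with the same number were thus not visibly more alike. This cannot tell whether they share an animal or a culture. With the replicate number as a block, no call changed among these results and 1 value changed sign, Ppp1r3d for A1 + OVA against control (0.003).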
